A study of Oryctolagus cuniculus with 12 samples.

Results

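Corneal nerve, Schwann cell and cholinergic genes were followed in RNA from rabbit cornea: CHAT, ACHE, SCN7A, NGFR, SOX10 and S100B. The 6 genes were looked up by name in a deposited table of 29076 genes, and 5 of the 6 had a row. ACHE had no row by that name and was not analysed here. CHAT and SCN7A were chosen by their measured difference between GL and Ctrl corneas in an earlier analysis of these data, so values in that comparison describe the choice, and no test of a member is read there.

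The study sequenced 12 cornea libraries, 3 in each of 4 groups labelled BL (blue light), GL, RL and Ctrl (control). What GL and RL abbreviate is left unsaid by the labels, and no wavelength or intensity was found in them. Per the labels, all rabbits were 6 months old and ate a normal diet, and the same treatment entry, 6 weeks of light exposure, stands on the control libraries as well. Whether each library is a separate animal is not stated, so a p-value here compares groups with the scatter among these libraries only, and that scatter may be technical.

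The cornea is among the most densely innervated tissues of the body. Its sensory axons come from the trigeminal ganglion, run through the stroma accompanied by Schwann cells, lose that cover when they enter the epithelium and end there as free endings. Nerve cell bodies lie outside the cornea, so a cornea library holds the RNA of Schwann cells and of resident corneal cells but little from the nucleus or cell body of a sensory neuron. CHAT makes acetylcholine from choline and acetyl-CoA, and the corneal epithelium is known as a non-neuronal source of acetylcholine. SOX10 is the transcription factor that sets and keeps Schwann cell and melanocyte identity, S100B is a calcium-binding protein used as a Schwann cell stain, NGFR is the low-affinity neurotrophin receptor p75, found on Schwann cells and on basal cells of stratified epithelia, and SCN7A encodes Nax, a sodium-sensing channel of glia, including Schwann cells. SOX10, S100B and NGFR are thus not specific to nerve.

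Sequencing depth, as the sum of counts in M (mega), was 40.9 to 58.8 in BL, 61.6 to 64.7 in GL, 45.9 to 62.4 in RL and 44.4 to 56.9 in Ctrl. Low counts were spaced by about 3.73, so the totals stood for an estimated 11.0 to 17.4 M fragments. Corneal identity was plain: the epithelial keratin KRT12 ranged from 7740 to 14000 FPKM (the deposited level of a gene, scaled for transcript length and sequencing depth) over the 12 libraries. A set of 5 libraries, all of BL with Ctrl 1 and RL 1, held 2389 to 2563 genes at counts of 1 to 20, against 767 to 1461 in the other 7, so BL lay wholly within one kind of library and GL wholly within the other. Photoreceptor transcripts stood out in BL 1, GL 3 and Ctrl 2. There a list of 18 retinal genes summed to 72.7, 256 and 55.2 FPKM, against 4.28 to 19.0 FPKM in the other libraries. BL 2, BL 3 and RL 2 had smaller sums of 13.8, 15.3 and 19.0 FPKM, so these transcripts were not confined to the first 3. Values under settings for these features stand beside some of the results below and in the closing section, but not beside every result.

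In these libraries CHAT was low in GL and RL corneas and high but scattered in BL and Ctrl corneas. NGFR stood highest in GL. SCN7A stood lowest in GL, and SOX10 and S100B showed no order among the groups that exceeded the scatter. By edgeR's quasi-likelihood test with Benjamini-Hochberg adjustment over 18171 genes, no member passed an adjusted p of 0.05 in any of the 6 comparisons between groups. These are bulk libraries, in which fewer cells of a type and less RNA per cell cannot be told apart.

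**Figure D1:**
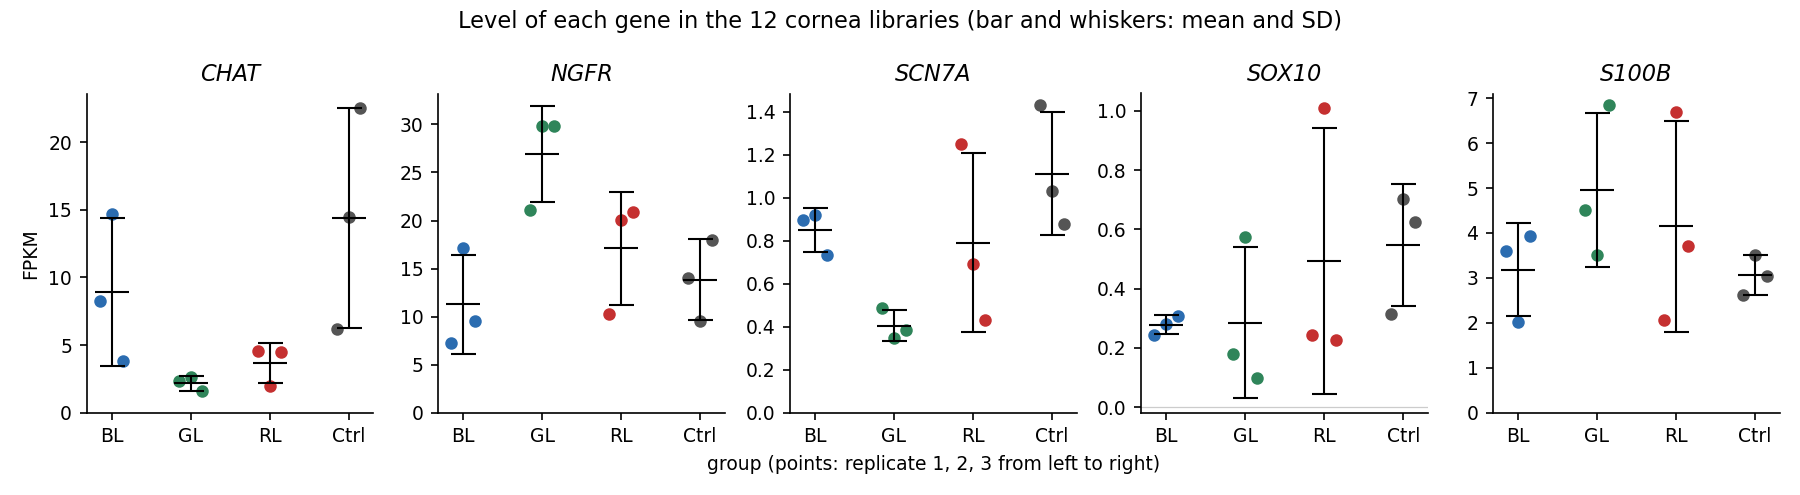
FPKM of CHAT, NGFR, SCN7A, SOX10 and S100B in each of the 12 cornea libraries, by group (BL, GL, RL, Ctrl; points are replicates 1 to 3 from left to right, the bar is the mean and the whiskers the SD, n = 3). CHAT lies at 1.58 to 2.65 FPKM in GL and 1.99 to 4.54 FPKM in RL, below the 6.23 to 22.5 FPKM of Ctrl, while NGFR in GL, at 21.1 to 29.8 FPKM, lies above every other library.

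CHAT, the enzyme of acetylcholine synthesis, is placed on chromosome 18 from 5735013 to 5779933 on the plus strand, in the numbering of the deposited table, whose build is not given in the sources used here. It had 8.24, 14.7 and 3.82 FPKM in BL replicates 1 to 3, 2.32, 2.65 and 1.58 FPKM in GL, and 4.54, 1.99 and 4.50 FPKM in RL. Ctrl replicates 1 to 3 had 6.23, 14.5 and 22.5 FPKM. Every GL and every RL library lay below every Ctrl library, whereas BL and Ctrl overlapped over most of their range. Means were 8.93 ± 5.49 FPKM in BL, 2.19 ± 0.546 in GL, 3.68 ± 1.46 in RL and 14.4 ± 8.13 in Ctrl (SD, n = 3 each). In the order Ctrl, BL, RL, GL no group was separated from its neighbour, because the ranges of BL and Ctrl, of BL and RL, and of GL and RL all overlapped. The Ctrl libraries themselves spanned a wider range than any light group.

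The estimated number of CHAT fragments per library ran from 127 to 1320, so counting error was small beside the scatter among libraries. Neither CHAT nor any other member overlaps another gene of the deposited table. The table describes both the CHAT and the NGFR transcript models as low-quality proteins, and that of SOX10 as a partial protein named from mouse. How complete these models are bears on the absolute FPKM of these genes, less on the differences between libraries.

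RL corneas had 3.92-fold less CHAT than Ctrl corneas by mean FPKM. The fitted log2 fold change of counts was -1.91 ± 0.52 (SE), with an unadjusted p of 0.00297 and an edgeR adjusted p of 0.858. All 3 RL libraries lay below all 3 Ctrl libraries, as did those of 6.16% of the genes tested. This comparison shares its Ctrl libraries with the one from which CHAT was taken, so its p-value is not independent of that choice. DESeq2 gave an adjusted p of 0.0368 for the same difference, and edgeR did not call it under any of the alternative settings run. Without Ctrl 3, the highest library, the log2 fold change was -1.45, and among the 7 libraries outside the set of 5 it was -2.43.

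BL corneas averaged less CHAT than Ctrl corneas, with a log2 fold change of -0.70 ± 0.51 (SE) that lay within the scatter (edgeR unadjusted p = 0.194, adjusted p = 1). It was -0.30 with a covariate for the set of 5 libraries. Set against RL, BL had a log2 fold change of 1.22 ± 0.51 (edgeR unadjusted p = 0.0338, adjusted p = 0.930), and the ranges touched only through BL 3. BL and RL share no library with GL or Ctrl, so only here did the compared CHAT and SCN7A levels play no part in the choice of these genes. The spread behind this SE and p-value was still estimated from all 12 libraries, GL and Ctrl included. This p-value is therefore not fully independent of the choice. Against GL, every BL library was higher, with a log2 fold change of 1.98 ± 0.52 (edgeR adjusted p = 0.238), where 16.5% of the genes tested were higher in every BL library. DESeq2 gave an adjusted p of 0.0118 there. The GL libraries also served to choose CHAT, so these p-values are not independent of that choice.

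For GL against Ctrl, which is the comparison that chose the gene, the mean FPKM of CHAT was 6.59-fold lower in GL and the log2 fold change was -2.67 ± 0.54 (SE). Among all genes tested, 10.8% were likewise lower in every GL library than in every Ctrl library, and 0.0550% were called by edgeR. GL and RL did not separate for CHAT, with a log2 fold change of -0.76 ± 0.51 for GL minus RL (edgeR adjusted p = 0.663).

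Lens transcripts moved with CHAT between GL or RL and Ctrl. A list of 15 lens genes, led by the crystallins CRYAA, CRYBB2 and CRYBA1, summed to 692 to 3710 FPKM in GL and 447 to 3390 in RL, against 6280 to 9720 in Ctrl, so that every GL and RL library lay below every Ctrl library for lens as for CHAT. In BL the order differed: BL 1 had the most lens RNA, 18300 FPKM, with 8.24 FPKM of CHAT, whereas BL 2 had the least lens RNA of its group, 2010 FPKM, with the most CHAT, 14.7 FPKM. With the lens sum as a covariate, an alternative chosen after seeing the data, the CHAT log2 fold change for RL minus Ctrl was -2.22. A role of lens tissue in the CHAT values was otherwise not tested. Cholinergic amacrine cells of the retina also express CHAT. Of the 3 libraries with the most photoreceptor transcripts, BL 1 had 8.24 FPKM of CHAT and GL 3 the lowest level of all, 1.58 FPKM. Ctrl 2 had one of the highest, 14.5 FPKM. A part of retinal RNA in these values was not tested.

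**Figure D2:**
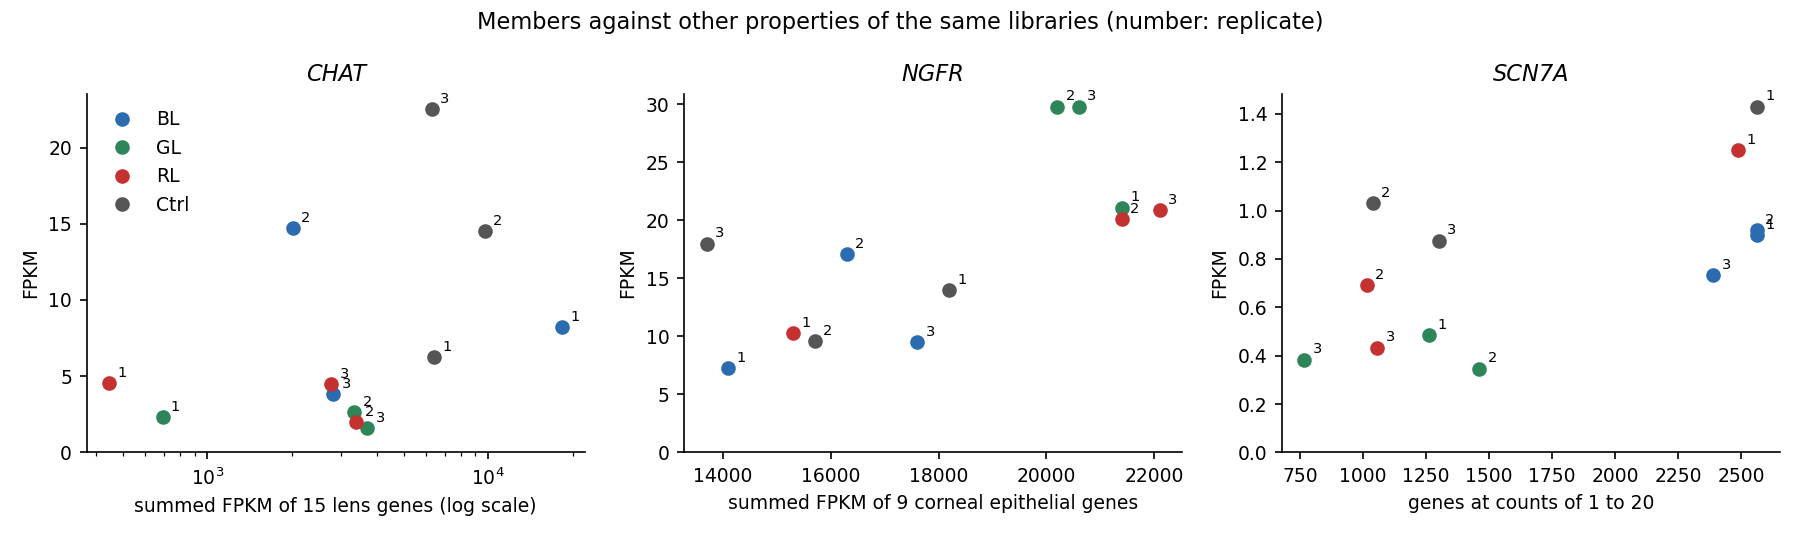
CHAT against the summed FPKM of 15 lens genes (log scale), NGFR against the summed FPKM of 9 corneal epithelial genes, and SCN7A against the number of genes at counts of 1 to 20, each point being 1 of the 12 libraries, coloured by group and numbered by replicate. Ctrl libraries lie to the right of GL and RL in the lens panel, GL libraries lie at 20200 FPKM or more in the epithelial panel, and the 5 libraries at 2389 genes or more in the last panel are those of BL with Ctrl 1 and RL 1.

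The rest of the cholinergic machinery was mostly sparse. SLC18A3 encodes the vesicular acetylcholine transporter and lies 4290 bases upstream of CHAT on the same strand; in mammals the pair forms the cholinergic gene locus. It had 0 to 0.131 FPKM in BL, 0 to 0.233 in GL, 0 to 0.264 in RL and 0 to 0.235 in Ctrl, with fewer than 3 estimated fragments in 6 of the 12 libraries and none in 5. SLC5A7, the high-affinity choline transporter of cholinergic terminals, was at 0 in all 12 libraries, where 3 fragments would be 0.173 to 0.273 CPM (counts scaled for depth). The CHAT transcript was thus measured at several FPKM in libraries in which both neuronal transporters were at or near 0. BCHE, butyrylcholinesterase, reached at most 0.166 FPKM.

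Levels of the genes of general choline handling differed widely from gene to gene. The choline kinase CHKB ranged from 26.5 to 41.5 FPKM, the choline transporter-like gene SLC44A2 from 24.5 to 36.4 FPKM and SLC44A1 from 12.4 to 18.9 FPKM over the 12 libraries. Others were scarcer: SLC44A4 ranged from 0.700 to 4.24 FPKM, and the choline kinase CHKA from 0 to 0.420 FPKM. Of the 10 listed genes for acetylcholine synthesis, transport and breakdown other than CHAT and ACHE, 8 were tested and edgeR called 0 in each of the 3 comparisons with Ctrl, also 0 at an unadjusted p below 0.05. Their median log2 fold change was -0.01 for BL, -0.18 for GL and -0.11 for RL minus Ctrl, beside 0.01, -0.02 and 0.00 over all genes tested. Over all genes tested edgeR called 0.0165% for BL, 0.0550% for GL and 0.0110% for RL minus Ctrl. With shares that low, 0 calls among 8 genes says little about this list, and 0 calls says little about the other lists below. Unadjusted p-values below 0.05 were held by 3.26%, 8.10% and 4.74% of all genes tested, in the same order.

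Acetylcholine receptors were present at low levels. CHRNA7, the nicotinic subunit of homomeric receptors, had 1.30 to 3.47 FPKM in BL, 1.59 to 2.84 in GL, 1.48 to 2.05 in RL and 1.62 to 3.02 in Ctrl, with full overlap. CHRNB1 and CHRNE, known as subunits of the muscle receptor, ranged over all libraries from 0.563 to 4.55 and from 0.734 to 4.60 FPKM. CHRM3, the muscarinic receptor of glands and smooth muscle, stayed at or under 0.332 FPKM, and CHRM1, CHRNA2 and CHRNA4 were at 0 in every library.

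CHRNB4, a nicotinic subunit of autonomic neurons, was at 0 in all 3 Ctrl libraries and above 0 in 8 of the 9 light libraries. It had 1.21, 0.564 and 1.78 FPKM in BL, 1.02, 0 and 0.782 in GL, and 0.152, 0.953 and 0.950 in RL. RL 1 rested on a count of 4 and BL 2 on 14, where 3 fragments stand for a count of 11.19. Among all genes tested, 4.74% were higher in every BL library and 2.65% in every RL library than in every Ctrl library. Against a floor of 3 fragments per library the group means were at least 2.70-fold higher in BL, 1.35-fold higher in GL and 1.57-fold higher in RL than in Ctrl, and edgeR's adjusted p was 1, 0.541 and 1 in that order of groups. Of the 12 receptor genes tested, 0 were called in any comparison with Ctrl, and 1 in each had an unadjusted p below 0.05. The share of all genes with such a p was 3.26% for BL, 8.10% for GL and 4.74% for RL.

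**Figure D3:**
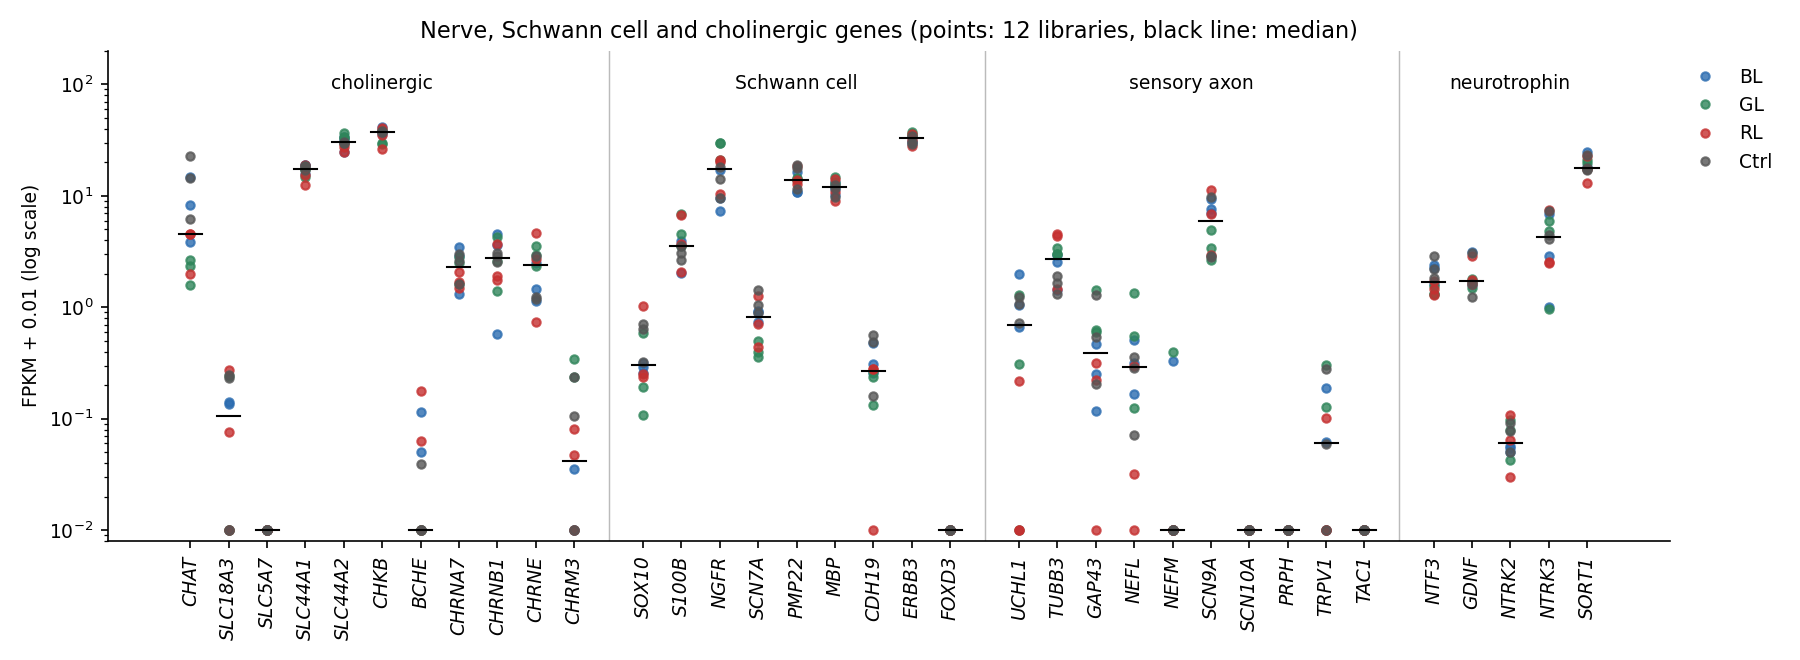
FPKM + 0.01 on a log scale for cholinergic, Schwann cell, sensory axon and neurotrophin genes, 1 point per library coloured by group, with the black line at the median of the 12 libraries. SLC5A7, FOXD3, SCN10A, PRPH and TAC1 lie at 0 in every library, and CHAT spreads over a wider range than the choline-handling genes SLC44A1, SLC44A2 and CHKB.

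NGFR is placed on chromosome 19 from 38083773 to 38101586 on the minus strand and had the highest mean level of the 5 members over the 12 libraries. It had 7.29, 17.1 and 9.50 FPKM in BL, 21.1, 29.8 and 29.8 FPKM in GL, and 10.3, 20.1 and 20.9 FPKM in RL. Ctrl libraries had 14.0, 9.56 and 18.0 FPKM. All 3 GL libraries lay above all the other 9, while BL, RL and Ctrl overlapped. Means were 11.3 ± 5.13 FPKM in BL, 26.9 ± 5.04 in GL, 17.1 ± 5.88 in RL and 13.8 ± 4.20 in Ctrl (SD, n = 3 each), and in the order GL, RL, Ctrl, BL only GL was free of overlap with its neighbour.

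The difference of GL from BL was the widest for this gene: the log2 fold change for BL minus GL was -1.30 ± 0.36 (SE), with an unadjusted p of 0.00337 and an edgeR adjusted p of 0.241. DESeq2 gave 0.0315, while 10.5% of the genes tested were lower in every BL than in every GL library. With a covariate for the set of 5 libraries the log2 fold change was -0.81, so the kind of library and the group cannot be fully told apart here. GL exceeded RL by 0.63 ± 0.36 on the log2 scale (edgeR adjusted p = 0.613), with 7.90% of genes higher in every GL than in every RL library. Against Ctrl the log2 fold changes were -0.29 ± 0.36 in BL, 1.02 ± 0.36 in GL and 0.39 ± 0.36 in RL, and these comparisons share the same Ctrl libraries. In GL against Ctrl, 7.67% of genes tested were, like NGFR, higher in every GL library.

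The summed level of epithelial transcripts was, like NGFR, higher in GL than in Ctrl. The 9 listed corneal epithelial genes, led by KRT12, KRT3 and AQP5, summed to 14100 to 17600 FPKM in BL, 20200 to 21400 in GL, 15300 to 22100 in RL and 13700 to 18200 in Ctrl. Each GL library lay above each BL and each Ctrl library, and RL 1, the RL library with the lowest epithelial sum, also had the lowest NGFR level of its group. KRT12 makes up most of that sum, and the list was not uniform: of its 9 genes 5 were higher in every GL than in every Ctrl library, whereas PAX6, an eye development factor, was lower in each, at 222 to 283 FPKM in GL against 289 to 336 FPKM in Ctrl. TP63, a factor of basal epithelial cells, averaged 21.7 FPKM in GL and 27.3 FPKM in Ctrl. RL 3 had the highest epithelial sum of all, 22100 FPKM, with 20.9 FPKM of NGFR. The part of epithelial content in the NGFR values was not tested.

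NTRK2, NTRK3 and SORT1, other receptors of the neurotrophin system, were scarce or overlapped between groups. NTRK2, the receptor for BDNF, stayed at or under 0.0986 FPKM. NTRK3, the receptor for NTF3, ranged from 0.955 to 7.44 FPKM with overlap of all groups. SORT1, which pairs with NGFR in binding proneurotrophins, ranged from 12.9 to 24.5 FPKM. GFRA1, a receptor gene listed with them and named after its values were seen, did not overlap with Ctrl in RL or GL. It had 7.72, 7.87 and 6.03 FPKM in RL and 3.40, 4.36 and 2.84 FPKM in GL. Ctrl had 4.72, 5.08 and 4.58 FPKM, and BL had 1.92 to 6.29 FPKM. Likewise, 2.65% of all genes tested were higher in every RL library than in every Ctrl library, and 10.8% were lower in every GL library.

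Of the 16 listed neurotrophin and growth factor genes 15 were tested. In each of the 3 comparisons with Ctrl, edgeR called 0, and 1 had an unadjusted p below 0.05. The share of all genes with such a p was 3.26% for BL, 8.10% for GL and 4.74% for RL. NTF3, named here after its values were seen, had 1.62 to 2.38 FPKM in BL, 1.30 to 1.53 in GL and 1.28 to 1.70 in RL, against 1.81 to 2.86 in Ctrl. It thus lay below Ctrl in every GL and RL library, with log2 fold changes of -0.68 ± 0.39 for GL (edgeR adjusted p = 0.630) and -0.56 ± 0.39 for RL (adjusted p = 1). ERBB2, the signalling partner of ERBB3 for neuregulin, had 42.8, 43.2 and 45.4 FPKM in GL, against 33.2, 27.7 and 30.6 FPKM in Ctrl, with a log2 fold change of 0.57 ± 0.18 (edgeR adjusted p = 0.508). ERBB2 is also an epithelial receptor. In RL replicates 1 to 3 the epithelial sums were 15300, 21400 and 22100 FPKM, with 31.5, 41.8 and 29.9 FPKM of ERBB2. The part of epithelial content in the ERBB2 values was not tested. GFRA2, the neurturin co-receptor, had 7.06, 7.91 and 10.5 FPKM in RL, against 4.90, 2.20 and 2.22 FPKM in Ctrl, a log2 fold change of 1.53 ± 0.48 (edgeR adjusted p = 0.969).

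NRG1, the axonal growth factor for Schwann cells, stood above Ctrl in every BL library, at 11.6, 10.6 and 7.64 FPKM in BL against 5.56, 2.96 and 2.67 FPKM in Ctrl. The log2 fold change was 1.41 ± 0.55 (edgeR unadjusted p = 0.0245, adjusted p = 1). NRG1 also separated the kinds of library without regard to group: the 5 libraries of the set had 5.56 to 11.6 FPKM and the other 7 had 1.47 to 5.55 FPKM, so for BL the group and the set cannot be told apart.

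SCN7A is placed on chromosome 7 from 105877618 to 105974339 on the minus strand. It had 0.898, 0.918 and 0.733 FPKM in BL, 0.486, 0.347 and 0.384 FPKM in GL, and 1.25, 0.691 and 0.433 FPKM in RL. Ctrl libraries had 1.43, 1.03 and 0.876 FPKM. Every GL library lay below every BL and every Ctrl library, and RL spread from the GL range into the Ctrl range. Means were 0.850 ± 0.102 FPKM in BL, 0.406 ± 0.0720 in GL, 0.790 ± 0.416 in RL and 1.11 ± 0.284 in Ctrl (SD, n = 3 each). In the order Ctrl, BL, RL, GL, neighbouring groups overlapped throughout. SCN7A was read from only 44.0 to 131 estimated fragments per library.

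The level of SCN7A went with the kind of library as well as with the group. The 5 libraries of the set had 0.733 to 1.43 FPKM with a median of 0.918, and the other 7 had 0.347 to 1.03 with a median of 0.486. Within those 7 the 3 GL libraries, at 0.347 to 0.486 FPKM, and the 2 RL libraries, at 0.433 to 0.691, lay below the 2 Ctrl libraries, at 0.876 to 1.03. For BL minus GL the log2 fold change was 1.01 ± 0.37 (edgeR adjusted p = 0.274), and it was 0.19 with a covariate for the set. BL and RL had a log2 difference of 0.05 ± 0.37 (SE) in the main fit and -0.41 with that covariate, so no direction is given for it. For GL minus RL it was -0.97 ± 0.37 (edgeR unadjusted p = 0.0223, adjusted p = 0.548). The GL libraries in BL minus GL and GL minus RL also served to choose SCN7A, so these p-values are not independent of it. Against Ctrl the log2 fold changes were -0.39 ± 0.37 in BL (edgeR adjusted p = 1; -0.92 with the covariate), -1.40 ± 0.38 in GL, the comparison that chose the gene, and -0.43 ± 0.37 in RL (edgeR adjusted p = 1).

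Among the other sodium channel genes, SCN9A, the channel Nav1.7 of nociceptors, had 7.02 to 9.32 FPKM in BL, 2.67 to 4.97 in GL, 2.92 to 11.2 in RL and 2.82 to 9.68 in Ctrl. Within RL and Ctrl its highest value fell in replicate 1, and the 5 libraries of the set, at 7.02 to 11.2 FPKM, lay wholly above the other 7, at 2.67 to 6.83 FPKM. SCN10A, the nociceptor channel Nav1.8, was at 0 in every library.

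The auxiliary subunit SCN2B had 1.36, 1.30 and 2.80 FPKM in GL, against 0.701, 1.13 and 0.641 FPKM in Ctrl, with a log2 fold change of 1.19 ± 0.49 (edgeR adjusted p = 0.601). Of the 9 listed sodium channel genes 6 were tested, and edgeR called 0 in each comparison with Ctrl. At an unadjusted p below 0.05 stood 0, 2 and 0 for BL, GL and RL, beside 3.26%, 8.10% and 4.74% of all genes.

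**Figure D4:**
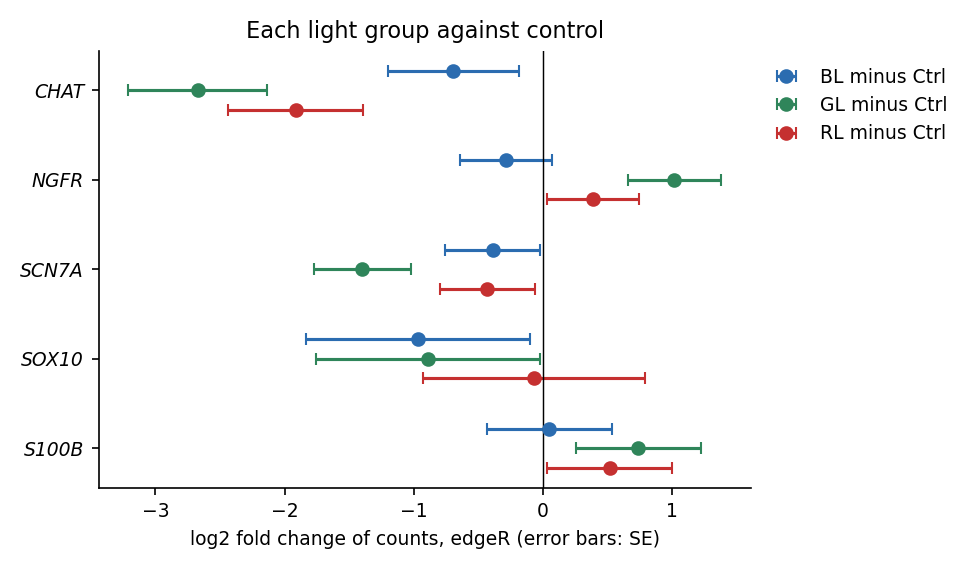
Log2 fold change of counts with its SE for CHAT, NGFR, SCN7A, SOX10 and S100B in BL, GL and RL, each minus the same 3 Ctrl libraries (edgeR, 12 libraries in 1 fit). CHAT reads -0.70, -2.67 and -1.91 and SCN7A -0.39, -1.40 and -0.43 for BL, GL and RL, NGFR is above 0 in GL and RL, and the error bars of SOX10 are the widest.

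SOX10, the identity factor of Schwann cells, is placed by the deposited table on an unplaced scaffold from 225867 to 235174 on the minus strand. It was the scarcest member, with 5.09 to 48.8 estimated fragments per library. It had 0.245, 0.281 and 0.308 FPKM in BL, 0.181, 0.576 and 0.0984 FPKM in GL, and 0.243, 1.01 and 0.227 FPKM in RL. Ctrl libraries had 0.316, 0.703 and 0.624 FPKM. Every BL library lay below every Ctrl library, but BL 3 and Ctrl 1 were almost level, and in GL and RL the values scattered across and beyond the Ctrl range. The log2 fold change for BL minus Ctrl was -0.97 ± 0.87 (edgeR unadjusted p = 0.284, adjusted p = 1), where 4.30% of genes tested were lower in every BL library. With a covariate for the set of 5 libraries it was -0.05. For GL and RL minus Ctrl it was -0.89 ± 0.87 and -0.07 ± 0.86. The value for RL turned positive when Ctrl 2, Ctrl 3, RL 1 or RL 3 was left out. Without the 3 libraries with the most photoreceptor transcripts, the value for GL was -0.256. No difference in SOX10 between groups exceeded the scatter among these libraries.

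S100B is placed on chromosome 14 from 163365662 to 163373805 on the plus strand. It had 3.61, 2.01 and 3.94 FPKM in BL, 4.52, 3.50 and 6.85 FPKM in GL, and 2.06, 6.68 and 3.71 FPKM in RL. Ctrl libraries had 2.63, 3.51 and 3.04 FPKM. All 4 groups overlapped, and means were 3.19 ± 1.03 FPKM in BL, 4.96 ± 1.72 in GL, 4.15 ± 2.34 in RL and 3.06 ± 0.444 in Ctrl (SD, n = 3 each). The log2 fold changes against Ctrl were 0.05 ± 0.48 in BL (edgeR adjusted p = 1), 0.74 ± 0.48 in GL and 0.51 ± 0.48 in RL (adjusted p = 1). With a covariate for the set of 5 libraries the value for BL was 0.595. Neither of the highest libraries, GL 3 and RL 2, was the highest of its group for CHAT or SCN7A, and RL 2 was also the library with most SOX10.

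The wider Schwann cell list gave no calls. CDH19, a marker of immature Schwann cells, ranged from 0 to 0.550 FPKM, with overlap of all groups. The neural crest factor FOXD3 was at 0 throughout.

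Members of that list which epithelia also express were far more abundant. MAL ranged from 184 to 358 FPKM, ERBB3 from 27.8 to 37.3, PMP22 from 10.7 to 18.8 and MBP from 8.94 to 14.8 FPKM, and none of them was called. Of the 21 listed genes 19 were tested. By edgeR 0 were called in each comparison with Ctrl, beside 0.0165% of all genes for BL, 0.0550% for GL and 0.0110% for RL. With shares that low, 0 calls among 19 genes says little about this list. An unadjusted p below 0.05 was held by 0 of them, beside 3.26%, 8.10% and 4.74% of all genes. The median log2 fold change was -0.04 in BL, 0.02 in GL and 0.06 in RL minus Ctrl, close to the 0.01, -0.02 and 0.00 over all genes. Melanocytes share SOX10 with Schwann cells: the 8 listed melanocyte genes summed to 55.1 to 76.7 FPKM in BL, 55.9 to 61.5 in GL, 56.9 to 111 in RL and 56.7 to 61.9 in Ctrl, with RL 1 the highest and PMEL at 20.6 to 36.5 FPKM throughout.

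Many transcripts of sensory neurons were not detected: PRPH, SCN10A, TRPA1, TAC1 and POU4F1 were at 0 in all 12 libraries. NEFM, a neurofilament subunit, was seen in BL 1 at 0.320 FPKM and in GL 3 at 0.389 FPKM, and in none of the other 10. BL 1 and GL 3 are among the 3 libraries with the most photoreceptor transcripts. The capsaicin receptor TRPV1 stayed at or under 0.291 FPKM. UCHL1, a pan-neuronal marker used to stain corneal nerves, had 0.655 to 1.98 FPKM in BL, 0 to 1.28 in GL and 0 to 0.206 in RL, against 0.706 to 1.22 in Ctrl. Every RL library lay below every Ctrl library for UCHL1, with an edgeR adjusted p of 1.

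PIEZO2, the mechanically gated channel of touch receptors, had 0.365 to 0.593 FPKM in BL, 0.684 to 0.990 in GL and 0.206 to 0.556 in RL, against 0.729 to 1.09 in Ctrl. It lay below Ctrl in every RL and every BL library, with a log2 fold change of -1.27 ± 0.38 in RL (edgeR unadjusted p = 0.00538, adjusted p = 0.901). In GL it was level with Ctrl, at 0.005 ± 0.37 on the log2 scale. TUBB3, neuronal tubulin, had 1.45, 4.37 and 4.52 FPKM in RL, against 1.91, 1.30 and 1.65 FPKM in Ctrl, with a log2 fold change of 1.17 ± 0.41 (edgeR unadjusted p = 0.0144, adjusted p = 1). In GL, TUBB3 had 3.41, 2.97 and 3.01 FPKM, above every Ctrl library, with a log2 fold change of 1.002 ± 0.412 (edgeR unadjusted p = 0.0307, adjusted p = 0.601), whereas RL 1 lay within the Ctrl range. Of the 24 listed sensory genes 12 were tested, and edgeR called 0 in each comparison with Ctrl. An unadjusted p below 0.05 was held by 0, 1 and 2 for BL, GL and RL, beside 3.26%, 8.10% and 4.74% of all genes.

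Among guidance cues for axons, SEMA3F, a repellent, ranged from 25.3 to 42.8 FPKM, SLIT2 from 21.5 to 40.3 and SLIT3 from 13.1 to 34.6 FPKM, without separation of groups from Ctrl. At the low end, SEMA7A ranged from 0 to 1.01 FPKM. NTN1, the axon attractant netrin-1, had 7.59, 8.40 and 9.42 FPKM in BL, against 9.43, 28.8 and 18.3 FPKM in Ctrl. Its log2 fold change was -1.16 ± 0.39 (edgeR unadjusted p = 0.0107, adjusted p = 1), and the one Ctrl library level with BL was Ctrl 1, which belongs to the same set. RL replicates 1 to 3 had 5.48, 12.9 and 10.6 FPKM of NTN1, and GL had 18.2, 15.9 and 23.1 FPKM. RL 2 and RL 3, outside that set, lay below Ctrl 2 and Ctrl 3, which are outside it too. The part of the library set in the NTN1 values was not tested. Of 16 guidance genes, all tested, edgeR called 0 in each comparison with Ctrl. An unadjusted p below 0.05 was held by 1, 0 and 1 for BL, GL and RL, beside 3.26%, 8.10% and 4.74% of all genes. NTN1 was the gene in both BL and RL.

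Counted over all comparisons, edgeR called 0 of the 5 members in each, where the share called among all 18171 genes was 0.0165% for BL minus Ctrl, 0.0550% for GL minus Ctrl, 0.0110% for RL minus Ctrl, 0.0495% for BL minus GL, 0.0110% for BL minus RL and 0.0715% for GL minus RL. At an unadjusted p below 0.05, 0 members passed in BL minus Ctrl (3.26% of all genes), 3 in GL minus Ctrl (8.10%), from which nothing is read, 1 in RL minus Ctrl (4.74%), 3 in BL minus GL (14.9%), 1 in BL minus RL (5.14%) and 1 in GL minus RL (8.60%). DESeq2 called 2 members in GL minus Ctrl, CHAT and SCN7A, which were chosen on that difference, so nothing is read from it. It called 1 in RL minus Ctrl, CHAT, and 2 in BL minus GL, CHAT and NGFR. In every comparison but BL minus RL, CHAT and SCN7A share GL or Ctrl libraries with that choice. Their calls and counts there are not independent of it, and in BL minus RL the spread was still estimated from all 12 libraries. Among all genes DESeq2 tested the shares called were 1.02% in GL minus Ctrl, 0.465% in RL minus Ctrl and 2.42% in BL minus GL. It called none in BL minus Ctrl, BL minus RL and GL minus RL, where it called 0.189%, 0.486% and 1.20% of genes. All limma fits called 0. Members whose libraries did not overlap between groups numbered 1 lower in BL than Ctrl (4.30% of all genes), 1 lower in RL than Ctrl (6.16%), 2 higher (16.5%) and 1 lower (10.5%) in BL than GL, and 1 higher in GL than RL (7.90%). In GL against Ctrl 1 was higher (7.67%) and 2 were lower (10.8%), the last being the genes chosen on it. In BL against RL 0 did, where 7.02% of genes were higher and 2.34% lower without overlap, and in GL against RL 0 were lower, where 5.53% of genes were. Of the 117 distinct genes on the 7 lists of related genes, 88 were tested by edgeR, and none was called in any of the 6 comparisons by edgeR, DESeq2 or limma. At an unadjusted edgeR p below 0.05, 3 to 6 of them passed per comparison.

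The members did not all vary in 1 direction across the 12 libraries. Pearson correlations of log2 CPM ran from -0.74 between SCN7A and NGFR to 0.60 between CHAT and SCN7A. S100B had -0.67 with CHAT and -0.62 with SCN7A, and 0.45 with NGFR. SOX10 and S100B, both Schwann cell markers, had 0.01. These correlations share libraries, groups and depth and are a description only. Among all tested genes with a symbol, the patterns most like CHAT over the 12 libraries were PON3 (r = 0.922), CATSPERG (0.904) and EIF3M (0.903). For SCN7A they were UHRF1BP1 (0.899), PPHLN1 (0.897) and ACER3 (0.877), and for NGFR they were PDP2 (0.943), PDGFB (0.925) and ATP2B4 (0.919). SOX10 was most like PRRG2 (0.898), HSPA6 (0.890) and KCNN4 (0.880), and S100B most like B4GALT7 (0.944), MRPL20 (0.927) and SRSF9 (0.926). No member and no gene of the 7 lists was among these nearest patterns.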

How the data were processed

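RNA from 12 rabbit cornea libraries was measured. The authors deposited, per the file headers, an estimated count and an FPKM per gene and library. The aligner and the rabbit build were not found in the labels or headers. The submitters' processing notes name GRCm38 and mm10, a mouse build, whereas the genes sit on rabbit sequences. Counts were whole numbers spaced by about 3.73 at the low end, taken as 1 fragment, so fragment numbers and floors are approximate. Zero counts, listed as an FPKM of 0.0001, were set to 0. There were no molecular identifiers, so floors cover counting error only. Of 23890 numeric gene identifiers 20171 matched a RefSeq gene table, from which symbols alone were taken. Its chromosome numbers differed from those read from the deposited table. Of 14863 genes compared, 3533 had the same number. It gives chromosome 15 for CHAT, 17 for NGFR, 3 for SCN7A, 11 for SOX10 and 4 for S100B, so the positions above hold only in the deposited numbering.

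Levels are the deposited FPKM. Tests used edgeR 4.0.16 in R 4.3.3 on the deposited counts (glmQLFit and glmQLFTest, TMM factors 0.944 to 1.06, filterByExpr, 1 fit of 12 libraries with 4 group means). P-values were adjusted by Benjamini-Hochberg over 18171 genes and called below 0.05. The procedure was tested on simulated data. Correlations used log2 CPM with a prior count of 2. The members, lists and tests were chosen with earlier results of these data known. Named were the members, up to 4 genes per list with the smallest p against Ctrl, the 3 with the highest FPKM, fixed markers, and the 3 genes most like each member. Of these, the ones with values worth a sentence are printed, and some genes of the lists are not reported here. Alternatives were DESeq2 1.42.0, limma 3.58.1 on log2 FPKM, other scalings and filters, a replicate block, fits of the groups compared, covariates for library set and lens transcripts, and omission of libraries. The lens covariate and the fit of 7 libraries were added after seeing the data.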

Additional observations from a re-analysis of the deposited data

Results flagged for a closer look

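SLC44A2, a choline transporter-like gene, lay on opposite sides of Ctrl in GL and RL. It had 33.7, 36.4 and 32.8 FPKM in GL and 24.6, 29.0 and 27.2 FPKM in RL, against 29.8, 29.6 and 30.4 FPKM in Ctrl, so every GL library was above and every RL library below the Ctrl range. BL had 31.6, 24.5 and 33.9 FPKM, on both sides of it. The difference between GL and RL was 0.33 ± 0.15 on the log2 scale (edgeR unadjusted p = 0.0526, adjusted p = 0.581) and did not pass the threshold. The 3 GL libraries lay above the 3 RL libraries, as did those of 7.90% of the genes tested. Only the members and the genes named by rule were searched for this pattern, not every listed gene. GFRA1, outside that search, also had every RL library above and every GL library below the Ctrl range.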

How the results depend on the processing

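The count of members called stayed at 0 in every comparison under scaling, filter, limma, step, covariate and replicate block settings; with DESeq2 it was 2 in GL minus Ctrl, 1 in RL minus Ctrl and 2 in BL minus GL. Leaving out each library in turn gave 0 to 1 in GL minus Ctrl, 1 being CHAT without Ctrl 1, and 0 elsewhere; CHAT and SCN7A were chosen on GL minus Ctrl, so no call there is read. The CHAT log2 fold change kept its sign in every setting, from -3.04 to -2.13 in GL minus Ctrl and from -2.43 to -1.45 in RL minus Ctrl.

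Of the members' fold changes under alternatives, 717 kept sign and call, 6 became called and 30 turned sign, none of them of CHAT; the cause was not tested. With the library set covariate, NGFR in BL minus Ctrl was 0.025, SOX10 and S100B in BL minus GL 1.17 and 0.14, and SCN7A, SOX10 and S100B in BL minus RL -0.41, 0.062 and 0.19. SOX10 in RL minus Ctrl was 0.17 without the 3 libraries with the most retinal transcripts and 0.42 with the lens covariate. For BL minus GL, SOX10 was 0.01 in unfiltered limma and 0.30 with the replicate block. S100B in GL minus RL was -0.10 without the 3 libraries with the most retinal transcripts and -0.11 in the 7 libraries alone. Omitting 1 library gave SOX10 -1.15 to 0.27 in RL minus Ctrl, -0.50 to 0.95 in BL minus GL, -1.24 to 0.18 in BL minus RL and -1.85 to 0.27 in GL minus RL. It gave S100B -0.14 to 0.28 in BL minus Ctrl, -0.016 to 0.85 in RL minus Ctrl, -0.80 to 0.061 in BL minus RL and -0.11 to 0.77 in GL minus RL, and SCN7A -0.25 to 0.50 in BL minus RL.

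Deviations of same-numbered libraries correlated from -0.07 to 0.24 (Ctrl 1 with RL 1 highest, both of the set of 5; median 0.01), and those of others from -0.16 to 0.13, so the numbers were not taken as pairs. Genes called over the whole table ranged by setting from 1 to 36 in BL minus Ctrl (main 3), 1 to 182 in GL minus Ctrl (10), 2 to 85 in RL minus Ctrl (2), 0 to 434 in BL minus GL (9), 1 to 87 in BL minus RL (2) and 2 to 224 in GL minus RL (13), the highest with DESeq2. SOX10 rests on the fewest fragments of the members, 5.09 to 48.8 per library, and every group has 3 libraries.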
